A study of Mus musculus with 15 samples.

Results

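Mouse pancreatic cancer cells that had spent 24 h in medium conditioned by wild-type pancreatic stellate cells were compared with the same cells in control medium. The comparison takes 6 of the 15 arrays of the series, chosen by their labels: 3 of cells in control medium and 3 of cells in wild-type medium, with all genes on the array considered. Stellate cells, abbreviated PSC, are fibroblast-like and lie around the acini and ducts of the pancreas. Here they were taken from wild-type (WT) or heterozygous (HT) mice and cultured for 2 weeks until activated. Conditioned medium carries what those cells release, and lacks what they used up. The other 3 cancer cell arrays, in HT PSC medium, entered the fit to estimate the spread, and the 3 arrays of WT PSC themselves are given as levels only. The labels name neither the cancer cell line, its genotype or clone, the mice's age, the heterozygous locus, nor whether the control medium was fresh or had been kept without cells. They also do not say whether replicates were separate cultures, so the p-values rest on the spread among these arrays alone, and that spread may be technical.

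As background, pancreatic ductal carcinoma grows within a dense stroma made largely by stellate cells and other fibroblasts, and their secreted factors reach the cancer cells. Many pancreatic tumours of the better differentiated kind carry a gastric-type secretory programme: gel-forming mucins, trefoil peptides and gastrokines, which the normal duct makes little of. Such cells also make enzymes that modify drugs and steroids, namely cytochrome P450 enzymes, glucuronosyltransferases, sulfotransferases and glutathione transferases, under control of endodermal transcription factors and nuclear receptors. The results below follow these groups first, then lipid and stress pathways, and then the genes that were higher in stellate medium.

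Every level is a log2 signal relative to the 75th percentile of its own array, so 0 is a fairly bright gene and a step of 1 is a doubling. Levels of different genes are not compared, because probes differ in brightness. A difference is WT PSC medium minus control, given ± SE from the fit with limma, with n = 3 arrays per group, and adjusted p is Benjamini-Hochberg over all genes tested. The cells carried the markers of an epithelial line. The keratin Krt8 read 7.44, 7.48 and 7.27 in control medium, and the adhesion molecule Cdh1 read 4.49, 4.40 and 4.39, against -7.61, -8.22 and -7.67 in WT PSC. Of 21 ductal and carcinoma markers, 20 were well above background on every control array and 18 on every WT PSC medium array.

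Most markers of stellate cells and fibroblasts were not well above background, but a few were. The summed signal of the list over 20 genes, in units of the 75th percentile, was 16.6 to 18.7 in control medium, 21.2 to 24.1 in WT PSC medium and 1285 to 1736 in WT PSC. 12 of the 20 were well above background on no control array and 11 on no WT PSC medium array, Col3a1, Pdgfrb, Des and Dcn among both. The other way, 5 were well above it on every control array and 5 on every WT PSC medium array. Among them was the smooth muscle actin Acta2, which read 3.96, 4.08 and 4.15 in control medium, 4.39, 4.30 and 4.52 in WT PSC medium and 7.23, 7.11 and 7.21 in WT PSC, and did not pass (0.34 ± 0.10, adjusted p = 0.0871). Without Acta2 the summed signal was 0.890 to 1.37, 1.13 to 1.51 and 1147 to 1586. WT PSC medium array 2 stood apart in a few of them. The collagen chain Col1a1 read -4.35, -4.22 and -4.72 in control medium and -4.02, -2.85 and -4.01 in WT PSC medium, and 7.75, 7.21 and 7.55 in WT PSC; Col1a2 read -6.01, -4.79 and -5.24 and -5.62, -3.29 and -5.31, and 8.73, 7.92 and 8.27 in WT PSC. The part of such RNA in other values was not tested, and values without that array are given where they matter. Markers of macrophages and leukocytes were split: 10 of 22 were well above background on every control array and 10 on every WT PSC medium array, Cd14, Itgam and Ptprc among both, while 11 were above background on no control array and 11 on no WT PSC medium array, with summed signals of 25.2 to 29.6 and 26.3 to 31.0. Cd68 and Mrc1, of that list, were well above background on all 6 arrays and rose by 0.52 ± 0.08 and 0.52 ± 0.08 (adjusted p = 0.00773 and 0.00586). The call of Cd68 was lost with the mean of its probes (0.58, adjusted p = 0.109 in limma). Between 55.0% and 59.6% of the spots were well above background on the 6 arrays compared, which lay on 2 slides.

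In WT PSC medium 1172 of 19687 genes passed an adjusted p of 0.05, or 5.95%. Of these, 551 were higher (2.80% of all genes tested) and 621 lower (3.15%). Counts in the gene lists below are to be read beside these shares. The falls were the larger: 121 of the lower genes changed by at least 2-fold and 27 of the higher ones. The median difference was -0.59 among genes called lower, 0.46 among genes called higher and 0.03 over all genes. The groups did not overlap for any of the 1172 genes, as for 25.3% of all genes tested. Where groups are said below to lie apart, that describes a called gene and is no separate support. On the first principal component of the 9 cancer cell arrays, which took 33.8% of the variance, controls scored -35.5 to -12.7 and WT PSC medium arrays 6.83 to 25.3. The count was 638 with arrays scaled to their medians, 467 with dim genes kept in, 731 without control array 1, and 734, 686 and 577 without WT PSC medium arrays 1, 2 and 3. With slide as a block it was 1149, and within a single slide, where 3 arrays of the groups remain, limma called 18 on slide 1 and 0 on slide 2 (1623 and 2060 at an unadjusted p under 0.05).

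**Figure D1:**
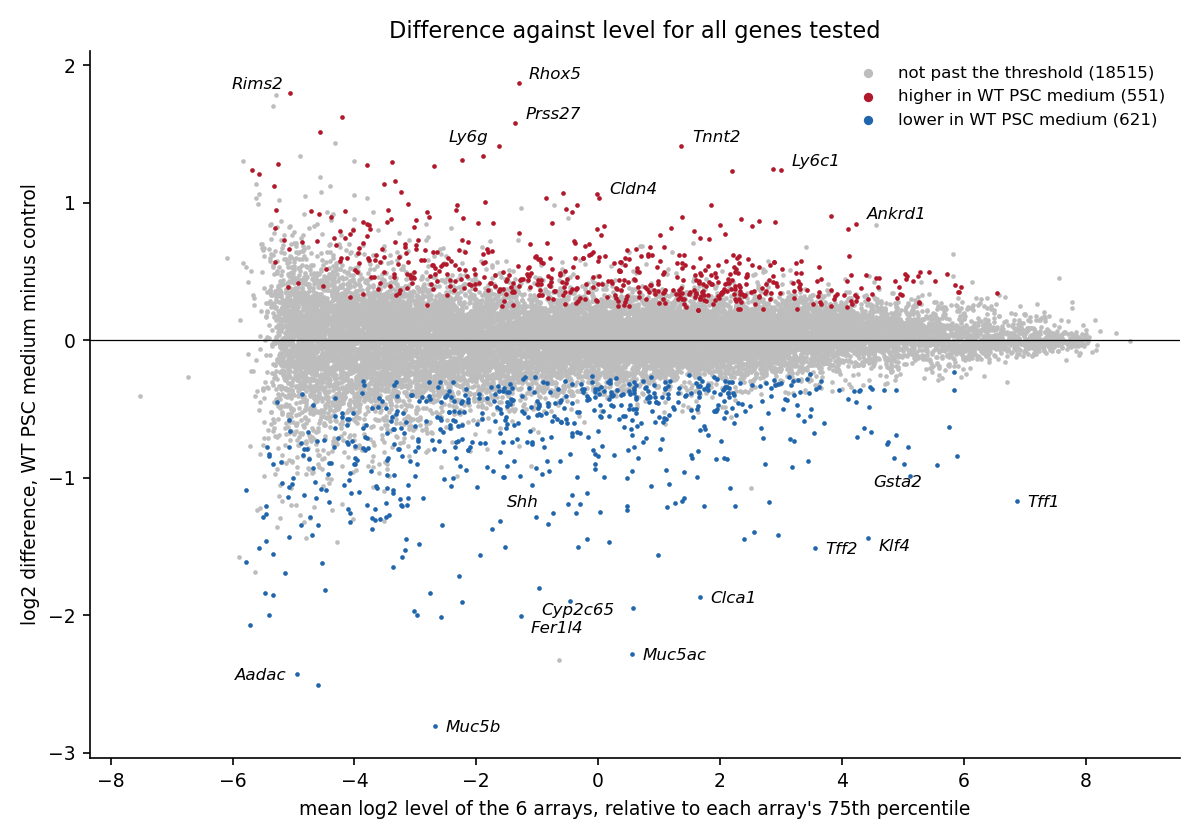
Each point is 1 gene: the x axis is the mean log2 level over the 6 arrays relative to each array's 75th percentile, the y axis the log2 difference, WT PSC medium minus control. The 551 genes higher and 621 lower past an adjusted p of 0.05 are coloured, and the falls (Muc5b, Muc5ac, Cyp2c65) reach further from 0 than the rises (Rhox5, Tnnt2, Ly6c1).

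**Figure D2:**
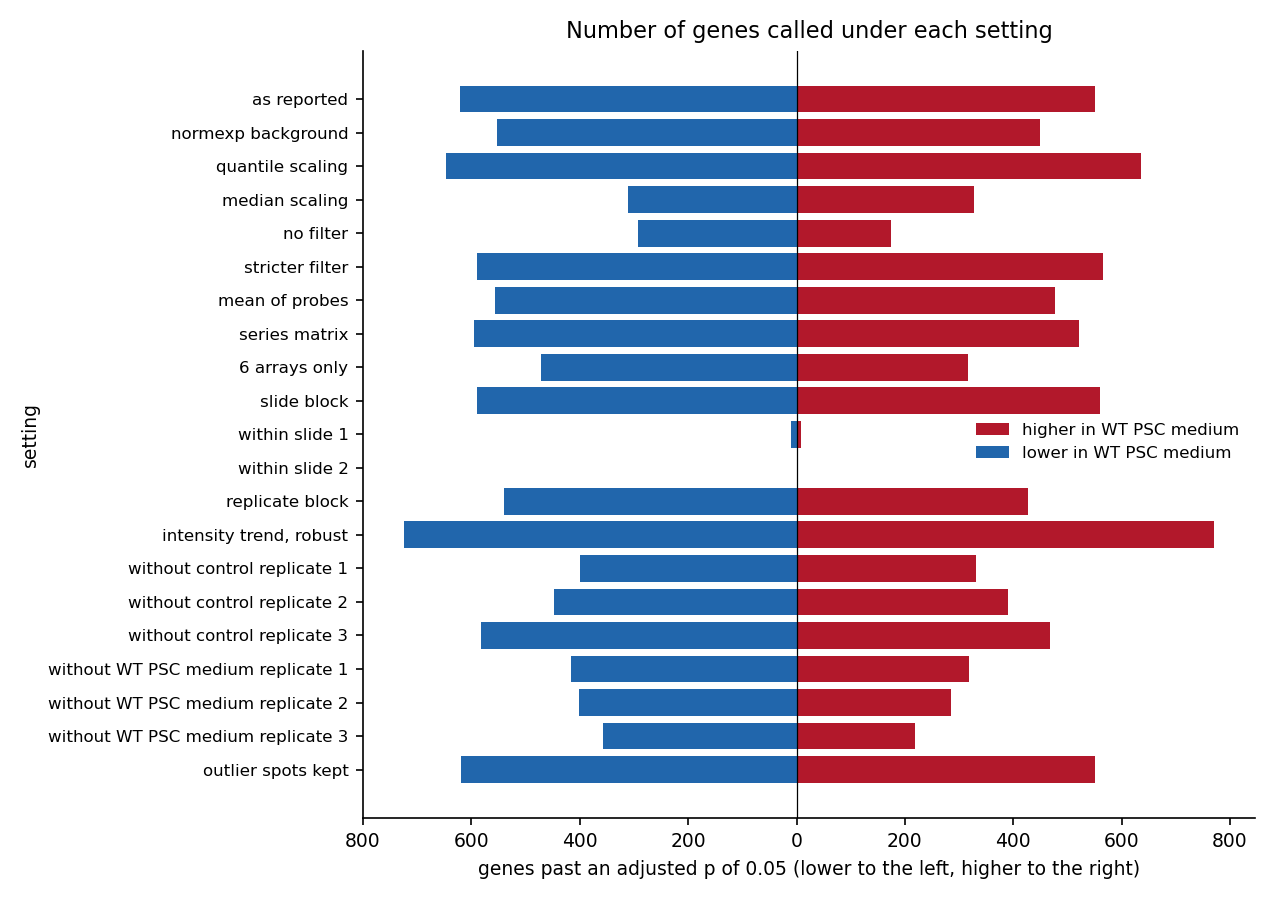
Bars give the number of genes past an adjusted p of 0.05, lower to the left and higher to the right, as reported and under each alternative setting. Both sides stay long in most settings, while the fits within 1 slide, with 3 arrays of the groups compared, call 18 and 0.

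Genes of mucus and gastric-type secretion were lower, and Muc5b fell most of all genes called. Muc5ac and Muc5b, the gel-forming mucins of the gastric surface and the airway, which are neighbours on chromosome 7, fell to 20.6% and 14.3% of control. Muc5ac (mm9 chr7:149004793-149004852) read 1.90, 1.69 and 1.51 on the control arrays and -0.39, -0.51 and -0.85 in WT PSC medium, a difference of -2.28 ± 0.15 (adjusted p = 0.000173). Muc5b (mm9 chr7:149058931-149058990) read -1.12, -1.21 and -1.50 and -3.96, -3.83 and -4.43, a difference of -2.80 ± 0.16 (adjusted p = 8.44e-05). All control arrays lay above all WT PSC medium arrays for both, by more than the spread within either group. Blocking on slide gave -2.28 for Muc5ac, and slides 1 and 2 taken alone gave -2.09 and -2.37. For Muc5b these values were -2.79, -2.66 and -2.93. Muc2, the intestinal mucin next to them, read -4.01, -3.79 and -3.96 and -4.45, -4.70 and -4.73 and fell by less (-0.71 ± 0.11, adjusted p = 0.00926). The membrane mucin Muc1, of which ductal cells make much, read 3.86, 3.86 and 3.54 and 3.95, 3.80 and 4.01, so the groups overlapped (0.17 ± 0.10, adjusted p = 0.395). Of 9 mucins tested 4 were lower, the last being Mucl3 (-0.50 ± 0.07), and 0 higher. Muc2 did not pass in the authors' deposited log2 values.

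Trefoil peptides, small secreted proteins that bind mucins and protect the mucosa, came next. Tff1, a very bright gene in these cells, read 7.53, 7.55 and 7.28 in control medium and 6.34, 6.16 and 6.35 in WT PSC medium (-1.17 ± 0.10, adjusted p = 0.000457). Tff2 read 4.38, 4.42 and 4.11 and 2.96, 2.66 and 2.76, falling to 35.1% of control (-1.51 ± 0.12, adjusted p = 0.000351). Tff3, the intestinal member, overlapped between the groups at 0.23, 0.50 and -0.05 and -0.03, -0.26 and -0.15 (-0.37 ± 0.14, adjusted p = 0.176). Gkn2, a gastrokine of stomach pit cells, read -0.15, 0.17 and -0.25 and -2.0, -1.90 and -1.73, a fall to 28.7% (-1.80 ± 0.13, adjusted p = 0.000235). Clca1, a secreted protease of goblet cell mucus, read 2.07, 2.97 and 2.77 and 0.86, 0.74 and 0.60 (-1.87 ± 0.21, adjusted p = 0.00167); control array 1 was the lowest control and still lay above every array in stellate medium. Dmbt1, a mucosal scavenger glycoprotein, fell by 1.20 ± 0.16, and Spdef, the ETS factor of goblet cell differentiation, fell to 49.6% of control (-1.01 ± 0.14, adjusted p = 0.00404). Fer1l4, a ferlin family transcript whose function is poorly known, had the smallest adjusted p of all genes and read -0.27, -0.21 and -0.33 against -2.28, -2.19 and -2.35 (-2.0 ± 0.07, adjusted p = 1.79e-05). Of 24 genes in the gastric-type list 9 were lower and 1 higher, and their median was -0.17 against 0.03 for all genes. The higher gene was the water channel Aqp5 (0.51 ± 0.12), a call lost without any 1 of the 6 arrays (adjusted p 0.0721 to 0.141) and with slide (0.0530) or the replicate number (0.0613) as a block. Blocking on slide put the list's median at -0.16, and slides 1 and 2 alone put it at -0.11 and -0.24. Other genes typical of the stomach, such as Ctse, the aspartic protease cathepsin E, did not pass (-0.34 ± 0.10, adjusted p = 0.0828).

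**Figure D3:**
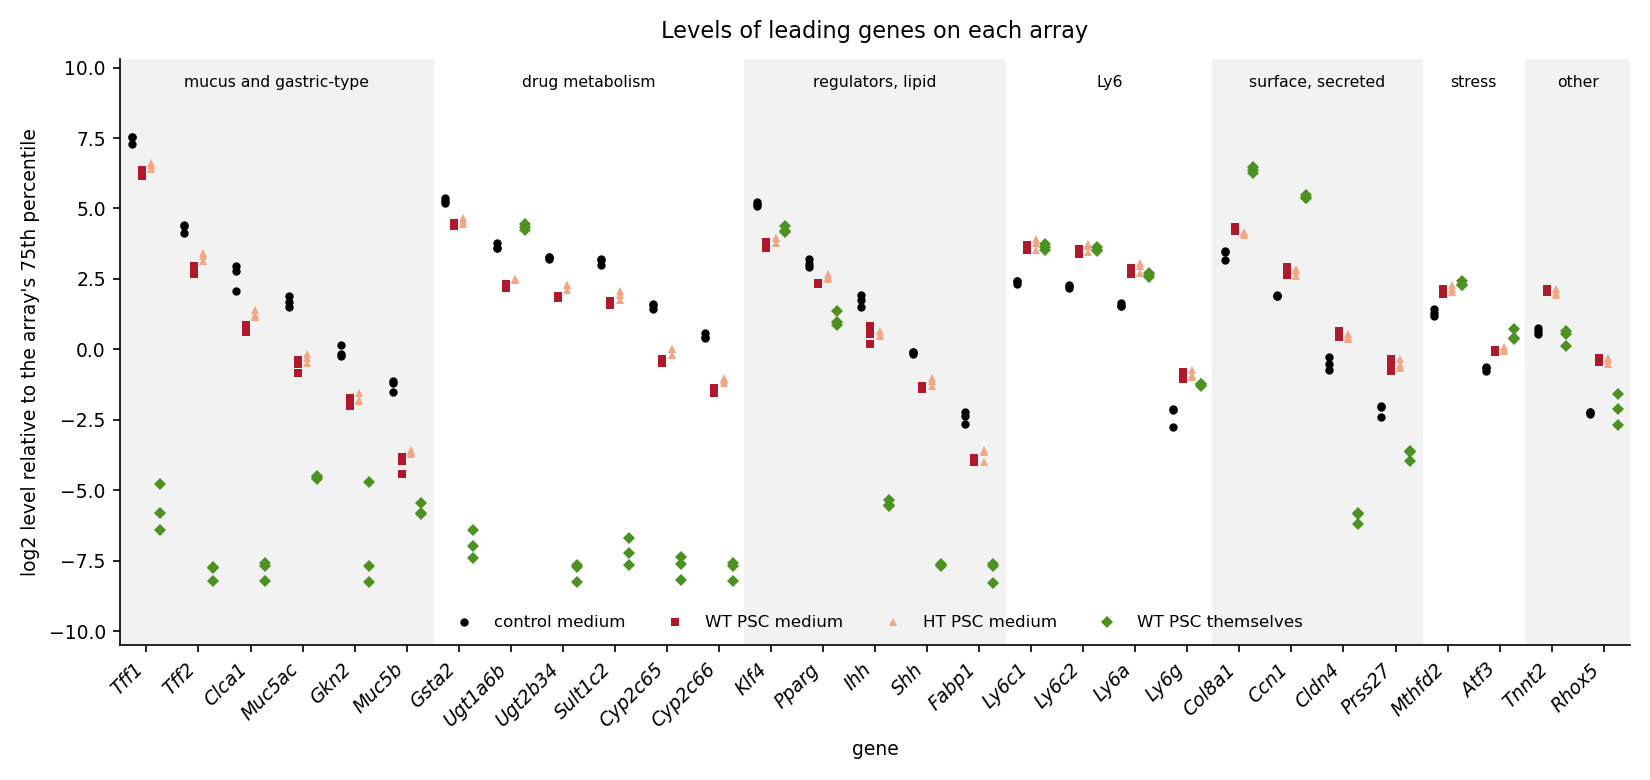
Each symbol is 1 array: the y axis is the log2 level relative to that array's 75th percentile, for cancer cells in control, WT PSC and HT PSC medium and for WT PSC themselves, 3 arrays each. In every gene shown the control arrays (black) and the WT PSC medium arrays (red squares) do not overlap; from Tff1 to Fabp1 the red squares lie below and from Ly6c1 to Rhox5 above.

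Several families of enzymes that modify drugs, steroids and bile acids were lower. Cytochrome P450 enzymes oxidise such compounds, and glucuronosyltransferases (Ugt) and sulfotransferases (Sult) then conjugate them so that they can leave the cell. Of 10 Cyp2c genes tested, from 16 on the array, 8 were lower and 0 higher, with differences of -1.95 to -0.33. Cyp2c65 (mm9 chr19:39168290-39168349) read 1.62, 1.44 and 1.58 in control medium and -0.39, -0.48 and -0.35 in WT PSC medium, a fall to 25.9% (-1.95 ± 0.08, adjusted p = 2.45e-05). Its neighbour Cyp2c66 (mm9 chr19:39261183-39261242) read 0.57, 0.40 and 0.46 and -1.36, -1.54 and -1.36 (-1.89 ± 0.08, adjusted p = 2.45e-05). The spread within each group was small beside these falls. Cyp2c55 was well above background on every control array and on no WT PSC medium array, so it was at least 2.19-fold lower; that call was lost without any 1 of the 6 arrays (adjusted p 0.0546 to 0.112) and with slide (0.0633) or the replicate number (0.0567) as a block. Near-identical copies can share signal on an array, and the probes of Cyp2c67 and Cyp2c68 match at 55 of 60 bases, so members of this family are not all independent measurements.

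All 5 Ugt2 genes and both Ugt1a genes tested were lower, of 9 and 3 on the array. A gene dim in WT PSC medium was tested only if bright in another group, so it could hardly be called higher. Family counts with such members are therefore no separate support. For Ugt2a3 the call rests on leaving out 1 WT PSC medium spot marked as an outlier: it had -1.84 without that spot and -0.63 with it (adjusted p = 0.721 in limma). Ugt2b34 read 3.28, 3.21 and 3.26 and 1.89, 1.81 and 1.88, falling to 38.1% of control (-1.39 ± 0.07, adjusted p = 4.36e-05). Ugt2b36 read -2.04, -2.13 and -1.76 and -3.90, -4.18 and -3.85 (-2.0 ± 0.12, adjusted p = 9.94e-05), and Ugt2b38 -1.96, -2.04 and -2.11 and -3.67, -4.26 and -4.09 (-1.97 ± 0.14, adjusted p = 0.000235). The probes of these 3 genes lie along chromosome 5, at mm9 chr5:87318849-87318908, spanning 87495455 to 87509913 and at 87839345 to 87839404. On chromosome 1, Ugt1a6b read 3.77, 3.61 and 3.58 and 2.24, 2.17 and 2.32 (-1.41 ± 0.07, adjusted p = 4.87e-05), and Ugt1a10 was above background only in control medium, at least 2.39-fold lower in WT PSC medium. For each of them the groups lay apart by more than the spread within either. Of 8 sulfotransferases 4 were lower and 1 higher. Sult1d1 read 0.40, 0.46 and 0.38 and -0.99, -1.14 and -1.14 (-1.50 ± 0.07, adjusted p = 4.36e-05), and Sult1c2, a sulfotransferase of stomach and kidney that the gastric-type list also holds, read 2.99, 3.16 and 3.20 and 1.71, 1.59 and 1.73 (-1.44 ± 0.10, adjusted p = 0.000198). Aadac, an arylacetamide deacetylase, was at least 3.52-fold lower, with no WT PSC medium array well above background. The alcohol dehydrogenase Adh7, which oxidises ethanol and retinol in the upper gut, fell to 28.4% (-1.82 ± 0.15, adjusted p = 0.000415; above background on 2 of 3 WT PSC medium arrays), and the flavin monooxygenase Fmo5 to 46.3% (-1.11 ± 0.07, adjusted p = 0.000119). All 4 carboxylesterases tested, from 19 on the array, were lower too, with differences of -1.07 to -0.71.

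In the wider list of 47 drug metabolizing enzymes tested, 17 were lower and 1 higher, or 38.3% called. Leaving out 1 array gave 13 to 15 lower. A stricter filter, with every array of both groups well above background, gave 15 lower. The median was -0.20, and -0.18, -0.22 and -0.23 with slide as a block and within slides 1 and 2. The higher gene was Aldh1a2, which makes retinoic acid from retinal: it read -4.09, -3.97 and -3.63 in control medium and -3.04, -3.12 and -2.95 in WT PSC medium (0.86 ± 0.11, adjusted p = 0.00404). The opposite enzyme, Cyp26b1, which breaks retinoic acid down, fell to 36.7% (-1.45 ± 0.18, adjusted p = 0.00264), and Dhrs3, which turns retinal back to retinol, to 62.7% (-0.67 ± 0.09, adjusted p = 0.00316). Aldh1a2 is bright in WT PSC, at 2.99, 2.73 and 2.66.

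Glutathione transferases, which join glutathione to reactive compounds, were also lower, while the genes of glutathione synthesis and cystine uptake mostly read close to control. Of 10 Gsta and Gstm genes tested 7 were lower and 0 higher. Gsta2 read 5.19, 5.39 and 5.27 in control medium and 4.37, 4.44 and 4.48 in WT PSC medium (-0.86 ± 0.08, adjusted p = 0.000759), and Gstm1 4.48, 4.71 and 4.63 and 3.92, 3.86 and 3.92 (-0.70 ± 0.08, adjusted p = 0.00169). Both groups were tight and apart, though the falls, to 55.2% and 61.4%, were smaller than those of the mucins. Cbr3, a carbonyl reductase, read 2.62, 2.68 and 2.83 and 1.68, 1.58 and 1.63 (-1.08 ± 0.07, adjusted p = 0.000193), and the epoxide hydrolase Ephx1 fell to 55.0% (-0.86 ± 0.08, adjusted p = 0.000615). NRF2, the main factor of this response, also drives glutathione synthesis, cystine uptake and thioredoxin reduction. There Gclm (-0.05 ± 0.06, adjusted p = 0.693), the cystine carrier Slc7a11 (-0.07 ± 0.17, adjusted p = 0.843) and Txnrd1 (-0.09 ± 0.09, adjusted p = 0.613) did not pass, and the groups overlapped for each. Heme oxygenase Hmox1 did not pass either (0.32 ± 0.08, adjusted p = 0.0565), though its WT PSC medium arrays, at 1.09, 1.09 and 1.25, all lay above the controls, at 0.68, 0.90 and 0.89. Groups without overlap were found for 25.3% of all genes tested. Of 36 genes in this list 11 were lower and 0 higher, with a median of 0.00; 7 were lower with arrays scaled to their medians. The detoxifying quinone reductase Nqo1, a classic target, was lower (-0.60 ± 0.11, adjusted p = 0.0141), a call lost without WT PSC medium array 2 or 3 (adjusted p 0.0573 to 0.0631). The catalytic subunit Gclc of glutathione synthesis was lower too (-0.40 ± 0.08), a call lost without control array 1 or 3 or WT PSC medium array 1, 2 or 3 (adjusted p 0.0627 to 0.109).

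Some transcription factors of endodermal epithelium were lower, and Klf4 fell furthest among them. Klf4, a zinc finger factor of differentiating gut and skin epithelium, read 5.22, 5.09 and 5.15 in control medium and 3.82, 3.71 and 3.61 in WT PSC medium, a fall to 36.9% (-1.44 ± 0.08, adjusted p = 8.44e-05). Slide 1 alone gave -1.37, slide 2 alone -1.43, and the fit blocked on slide -1.39. The hepatocyte nuclear factors Onecut1 and Onecut2 fell by 0.50 ± 0.08 and 0.48 ± 0.07 (adjusted p = 0.00957 and 0.00780). Others read close to control. Hnf4a, a receptor that drives hepatic and gut enzyme genes, was 5.68, 5.64 and 5.74 and 5.47, 5.51 and 5.52 (-0.18 ± 0.06, adjusted p = 0.104), and the pancreatic factor Pdx1 was 2.94, 2.91 and 2.99 and 2.82, 2.69 and 2.73 (-0.20 ± 0.09, adjusted p = 0.257). Neither passed the test. Their groups did not overlap, which was so for 25.3% of all genes tested. Gata6, a factor of the classical type of pancreatic carcinoma, passed narrowly (-0.32 ± 0.07), a call lost without any 1 of the 6 arrays (adjusted p 0.0514 to 0.102) and with the replicate number (0.0622) as a block. Sox9, the ductal factor, read -0.33, -0.74 and -0.90 and -1.34, -1.19 and -1.45 (-0.67 ± 0.17, adjusted p = 0.0586). Of 23 genes in this list 7 were lower and 0 higher, with a median of -0.20. The count was 4, 4 and 4 without WT PSC medium arrays 1, 2 and 3, and 3 with arrays scaled to their medians and 3 with dim genes kept in.

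Both hedgehog ligands of gut epithelium fell. Hedgehog proteins are secreted by epithelial cells, including pancreatic carcinoma, and act mainly on the surrounding stroma through Ptch1 and the Gli factors. Shh read -0.08, -0.11 and -0.17 in control medium and -1.30, -1.42 and -1.42 in WT PSC medium, a fall to 41.8% (-1.26 ± 0.08, adjusted p = 0.000122). Ihh read 1.77, 1.94 and 1.50 and 0.54, 0.21 and 0.82, a fall to 43.1% (-1.21 ± 0.16, adjusted p = 0.00417). The fit blocked on slide gave -1.22 for Shh and -1.24 for Ihh; slide 1 alone gave -1.18 and -1.09, and slide 2 alone -1.31 and -1.43. The receptor and target Ptch1 (-0.33 ± 0.29, adjusted p = 0.563) and the target Gli1 (-0.23 ± 0.29, adjusted p = 0.703) did not pass, and their groups overlapped. Of 14 pathway genes tested these 2 ligands were the only ones called in the fit as reported; without control array 3 the count was 3.

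Among lipid genes, some of fatty acid use and sterol export were lower and some of sterol synthesis higher. Pparg, the nuclear receptor of fat storage and epithelial differentiation, read 2.93, 3.05 and 3.20 in control medium and 2.36, 2.33 and 2.36 in WT PSC medium (-0.71 ± 0.08, adjusted p = 0.00178). The fatty acid binding proteins of liver and gut fell with it: Fabp1 read -2.35, -2.21 and -2.66 and -3.93, -4.01 and -3.87 (-1.53 ± 0.14, adjusted p = 0.000660), and Fabp2 -1.04, -1.05 and -1.06 and -1.95, -2.07 and -2.10 (-0.99 ± 0.06, adjusted p = 0.000119). In each the groups were well apart. Plin4, which coats lipid droplets, fell to 30.4% (-1.72 ± 0.07, adjusted p = 2.45e-05), whereas its relative Plin2 rose (0.47 ± 0.08, adjusted p = 0.00960). Of 27 genes of fatty acid oxidation and PPAR targets 6 were lower and 0 higher (median -0.14). That count was 3 with arrays scaled to their medians; it was 4, 6 and 4 without control arrays 1, 2 and 3 and 4, 4 and 4 without WT PSC medium arrays 1, 2 and 3. Of 9 genes of sterol export 4 were lower and 0 higher (median -0.45). Nr1h3, the sterol-sensing receptor LXR alpha, had -0.55 ± 0.09 (adjusted p = 0.00787), and its target Mylip, a ubiquitin ligase that limits sterol uptake, fell to 54.0% (-0.89 ± 0.14, adjusted p = 0.00737). Apoe, the lipoprotein that carries sterols out of cells, was lower as well (-0.68 ± 0.12), a call lost without control array 1 or 2 or WT PSC medium array 2 or 3 (adjusted p 0.0531 to 0.0701). The count of lower genes in that list was 2 with arrays scaled to their medians and 2 with dim genes kept in, and median scaling lost the call of Nr1h3.

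Genes of cholesterol synthesis were higher by small steps. Of 26 tested 12 were higher and 0 lower. A positive difference was found in 25, though the share over all genes is not given here. The median of the 26 was 0.28. That median was 0.27 when blocked on slide, 0.27 on slide 1 alone, 0.28 on slide 2 alone and 0.23 to 0.32 without 1 array. Lanosterol synthase, Lss, read 3.85, 3.90 and 3.89 in control medium and 4.32, 4.21 and 4.38 in WT PSC medium (0.43 ± 0.07, adjusted p = 0.0111), and the demethylase Cyp51 3.39, 3.44 and 3.32 and 3.83, 3.73 and 3.88 (0.43 ± 0.07, adjusted p = 0.0109). The groups lay apart in both, but the calls were not stable. Both were lost in limma without WT PSC medium array 3 (adjusted p 0.0520) and with dim genes kept in (0.0612 for Lss and 0.0598 for Cyp51). That of Lss was also lost with arrays scaled to their medians (0.0524). The count of higher genes was 4, 8 and 7 without control arrays 1, 2 and 3 and 4, 6 and 0 without WT PSC medium arrays 1, 2 and 3. It was 3 with arrays scaled to their medians, 0 with dim genes kept in, 6 with the 6 arrays alone and 7 with the replicate number as a block. The regulator Srebf2 did not pass (0.14 ± 0.06, adjusted p = 0.253).

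Genes of the amino acid stress response were higher. When amino acids run short or proteins misfold, the factor ATF4 is translated and, paired with a C/EBP protein, binds a composite element from which genes for amino acid synthesis and uptake are switched on. Of 39 such genes 12 were higher and 1 lower, with a median of 0.16. The count of higher genes was 9, 10 and 9 without control arrays 1, 2 and 3 and 8, 6 and 5 without WT PSC medium arrays 1, 2 and 3, and 6 with arrays scaled to their medians and 4 with dim genes kept in. The mitochondrial folate enzyme Mthfd2 read 1.43, 1.29 and 1.20 in control medium and 2.06, 2.13 and 1.97 in WT PSC medium (0.75 ± 0.09, adjusted p = 0.00241). Atf3, a stress factor downstream of ATF4, read -0.62, -0.76 and -0.65 and -0.11, -0.11 and -0.03 (0.60 ± 0.07, adjusted p = 0.00210). The methionyl-tRNA synthetase Mars1 rose by 0.49 ± 0.07 (adjusted p = 0.00668), and Aldh18a1 of proline synthesis by 0.41 ± 0.06 (adjusted p = 0.00807). In all 4 the groups lay apart. Atf4 itself read 6.48, 6.39 and 6.38 and 6.75, 6.79 and 6.71 and did not pass (0.33 ± 0.08, adjusted p = 0.0540). Trib3, a pseudokinase of the same response, missed the threshold (0.68 ± 0.19, adjusted p = 0.0804), and Ddit3, the death-associated factor CHOP, overlapped between the groups (0.02 ± 0.16, adjusted p = 0.950). The lower gene was Aldh1l2, of mitochondrial folate metabolism (-0.64 ± 0.13). Its call was lost without control array 1 or 3 or WT PSC medium array 1, 2 or 3 (adjusted p 0.0738 to 0.0922). With the mean of its probes Aldh1l2 had -0.39 (adjusted p = 0.447 in limma).

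The composite element, searched as TGATGNAA on both strands, was looked for in the 250 bases before each gene's start, from RefSeq on build GRCm38.p6. It was 1 of 13 kinds of motif searched. It stood in 312 of 11725 genes tested that matched a promoter (2.66%), and in 8 of the 33 amino acid stress genes with one (24.2%). 4 of these 8 were among the called genes, all higher. They are shown, each as 60 bases around the element, before the start site and on the gene's strand, with the element in capitals, so that the shared letters can be read beside the changes. The list was drawn up around ATF4, so the high share within it is no separate support. A match is a description of these letters and not a measured binding site.
Atf3: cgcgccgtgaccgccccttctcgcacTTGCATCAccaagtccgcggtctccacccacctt
Chac1: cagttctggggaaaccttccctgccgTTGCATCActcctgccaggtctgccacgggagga
Asns: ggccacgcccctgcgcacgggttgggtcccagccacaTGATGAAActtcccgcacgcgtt
Nupr1: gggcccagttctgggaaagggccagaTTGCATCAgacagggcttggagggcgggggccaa
Atf3 lies at chr1:191183410-191183469 on the minus strand, Chac1 at chr2:119351023-119351082 on the plus strand, Asns at chr6:7693210-7693269 and Nupr1 at chr7:126625547-126625606, both on the minus strand. Chac1, which degrades glutathione, read 2.61, 2.58 and 2.25 in control medium and 3.35, 3.41 and 3.26 in WT PSC medium (0.86 ± 0.16, adjusted p = 0.0184). Asns, asparagine synthetase, read 4.82, 4.69 and 4.89 and 5.21, 5.32 and 5.31 (0.48 ± 0.09, adjusted p = 0.0151). The stress protein Nupr1 read 4.13, 4.25 and 4.01 and 4.51, 4.54 and 4.48 (0.38 ± 0.09, adjusted p = 0.0457). With the mean of its probes Nupr1 differed by only 0.11 (adjusted p = 0.519 in limma), and with quantile scaling by 0.34 (adjusted p = 0.0595). All 3 lay higher on every WT PSC medium array, but their calls were not stable. That of Asns was lost without WT PSC medium array 2 or 3 (adjusted p 0.0596 to 0.0686), that of Chac1 lost without control array 3 or WT PSC medium array 1, 2 or 3 (adjusted p 0.0506 to 0.0687), and that of Nupr1 lost without control array 1 or 3 or WT PSC medium array 1, 2 or 3 (adjusted p 0.101 to 0.130) and with slide (0.0678) or the replicate number (0.0783) as a block.

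**Figure D4:**
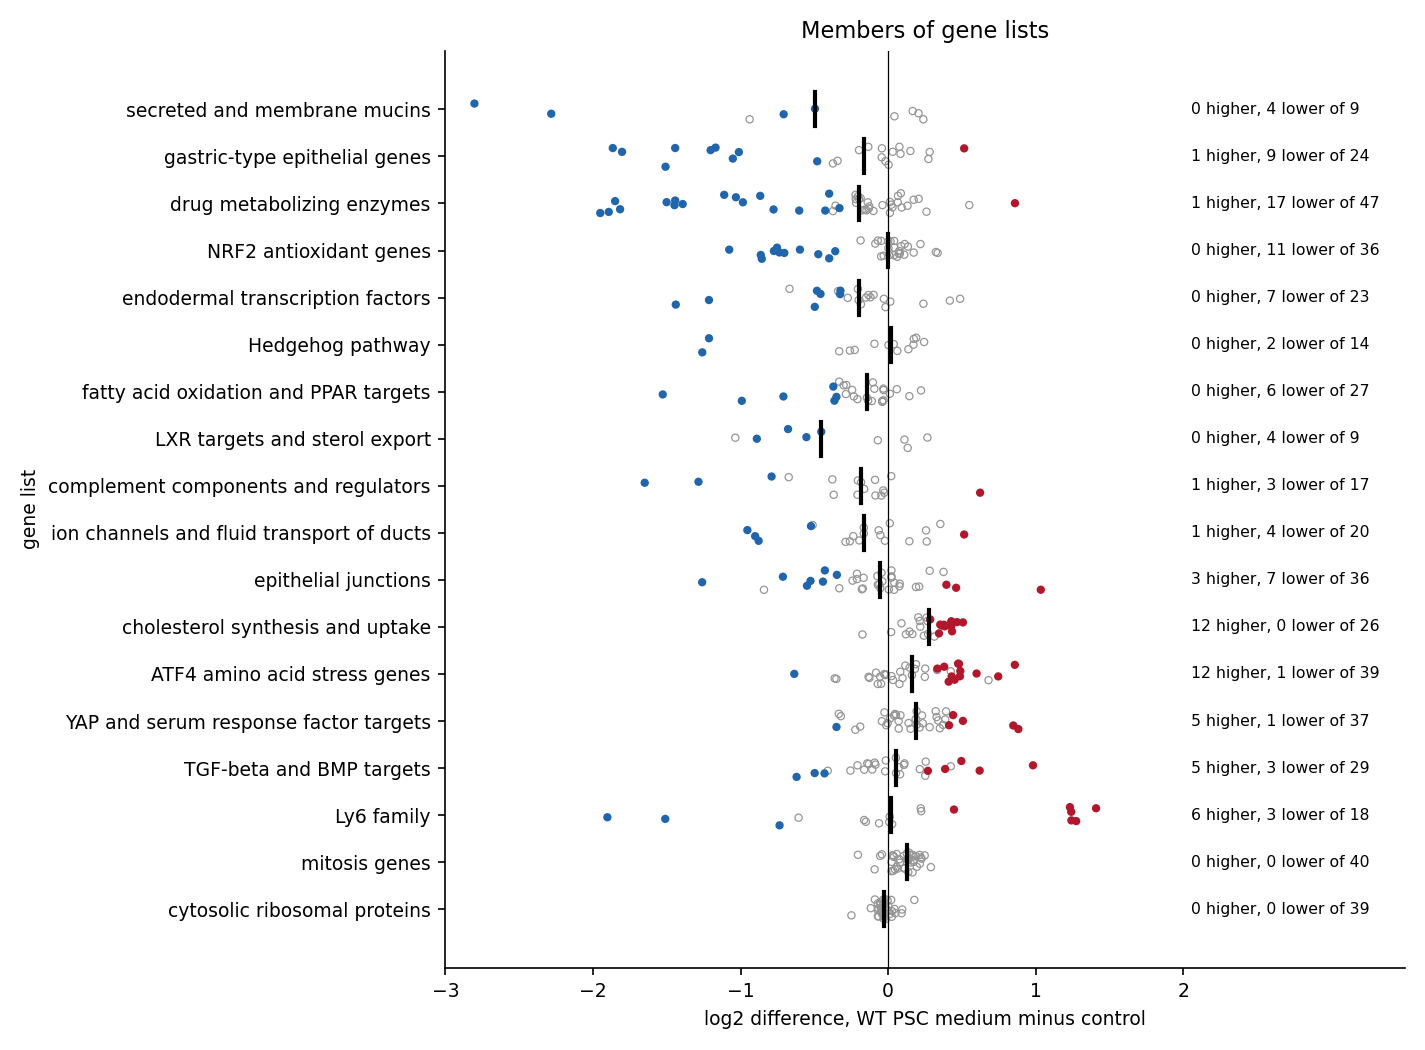
Each circle is 1 gene tested, placed by its log2 difference, WT PSC medium minus control, in the gene list named on the y axis; filled circles passed an adjusted p of 0.05 (red higher, blue lower) and the bar is the list's median. Drug metabolizing enzymes hold 17 lower genes of 47 and cholesterol synthesis 12 higher of 26, while mitosis genes and ribosomal proteins hold none.

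Other falls included enzymes and proteases of varied roles. Adamts15, a secreted metalloprotease that cleaves proteoglycans, read -1.55, -1.50 and -1.65 in control medium and -3.35, -3.56 and -3.82 in WT PSC medium, a fall to 24.8% (-2.01 ± 0.11, adjusted p = 8.44e-05). Hal, which starts the breakdown of histidine, read -1.69, -2.02 and -1.81 and -3.61, -3.69 and -3.73 (-1.84 ± 0.09, adjusted p = 4.36e-05), and Gda, which deaminates guanine, 2.81, 2.86 and 2.87 and 1.73, 1.63 and 1.56 (-1.21 ± 0.09, adjusted p = 0.000235). Bace2, an aspartic protease of the cell surface, read 3.45, 3.34 and 3.37 and 2.25, 2.15 and 2.23 (-1.17 ± 0.07, adjusted p = 0.000119). In all 4 the groups lay apart by more than the spread within either. Duoxa1, which brings the oxidase Duox1 to the cell surface, was above background on every control array and on no WT PSC medium array, at least 2.20-fold lower. Lgals2, a gut galectin, fell to 64.5% (-0.63 ± 0.09, adjusted p = 0.00475).

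Among the genes that rose were several of the Ly6 cluster. Ly6 genes encode small surface proteins anchored by a lipid; Ly6a, also called Sca-1, and the Ly6c genes mark progenitor and myeloid cells, and Ly6g neutrophils. Ly6a (mm9 chr15:74825553-74825612) read 1.55, 1.53 and 1.66 in control medium and 2.88, 2.68 and 2.87 in WT PSC medium, a rise to 235% (1.23 ± 0.10, adjusted p = 0.000429). Ly6c1 read 2.32, 2.41 and 2.43 and 3.67, 3.52 and 3.69 (1.24 ± 0.10, adjusted p = 0.000429). Ly6g read -2.74, -2.15 and -2.10 and -1.06, -0.92 and -0.79 (1.41 ± 0.17, adjusted p = 0.00234). In each of the 3 the groups lay apart by more than the spread within either. Ly6c2 rose alike (1.24 ± 0.09), but its probe matches that of Ly6c1 at 57 of 60 bases, so these are not separate measurements. Within slides 1 and 2 Ly6a had 1.27 and 1.25, and 1.28 with slide as a block. Of the macrophage and leukocyte markers 10 of 22 were well above background on every control array, and the part of such cells in the rise was not tested. Ly6a was also present in WT PSC, at 2.71, 2.58 and 2.64. Other members went the opposite way: Lypd6, which modulates nicotinic receptors and Wnt signals, fell to 26.8% (-1.90 ± 0.14, adjusted p = 0.000298), and the secreted Slurp1 was at least 1.66-fold lower. Of 18 tested 6 were higher and 3 lower; the call of Ly6f (1.27 ± 0.26) was lost without control array 1 or 3 or WT PSC medium array 2 or 3 (adjusted p 0.0666 to 0.0974), and that of Ly6e (0.45 ± 0.08) lost without WT PSC medium array 1 or 3 (adjusted p 0.0604 to 0.0701).

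Rhox5, a homeobox gene of the reproductive tract that many tumour lines express, rose most of all genes called. It read -2.21, -2.22 and -2.29 in control medium and -0.45, -0.35 and -0.32 in WT PSC medium, a rise to 366% (1.87 ± 0.07, adjusted p = 2.35e-05), and 1.84 when blocked on slide, 1.80 on slide 1 alone and 1.89 on slide 2 alone. The groups differed by many times their spread. Tnnt2, the cardiac troponin T, read 0.56, 0.66 and 0.77 and 2.02, 2.07 and 2.13 (1.41 ± 0.08, adjusted p = 8.79e-05). Rims2, a synaptic scaffold, was above background on no control array and on all WT PSC medium arrays, at least 2.58-fold higher. The neuropeptide Vip rose from near background, with 1 of 3 control arrays above it (1.51 ± 0.18, adjusted p = 0.00248). Mfap3l, a membrane glycoprotein, rose to 254% (1.34 ± 0.08, adjusted p = 8.44e-05).

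Some serine proteases and a claudin rose as well. Prss27 read -2.01, -2.06 and -2.41 in control medium and -0.76, -0.35 and -0.63 in WT PSC medium (1.58 ± 0.15, adjusted p = 0.000692), and Prss22 -0.98, -1.03 and -1.0 and -0.16, -0.14 and 0.15 (0.95 ± 0.09, adjusted p = 0.000652). Cldn4, a tight junction protein abundant in pancreatic carcinoma, read -0.26, -0.73 and -0.53 and 0.42, 0.52 and 0.64, a rise to 205% (1.03 ± 0.12, adjusted p = 0.00218). In these 3 genes every WT PSC medium array lay above every control. Prss46 rose as far as Prss27 (1.62 ± 0.15, adjusted p = 0.000767), with 2 of 3 control arrays above background. Of 17 Prss genes 3 were higher and 0 lower. In the list of epithelial serine proteases and their inhibitors, 2 of 21 were higher, 1 was lower and the median was -0.07; the lower one was the inhibitor Serpinb1a (-0.52 ± 0.10), a call lost without control array 2 or 3 or WT PSC medium array 2 (adjusted p 0.0511 to 0.0684). Junction genes did not share one direction: of 36 tested 3 were higher and 7 lower. Among the lower ones were Tjp3, a scaffold under the tight junction (-0.53 ± 0.07, adjusted p = 0.00380), and Elf3, an epithelial ETS factor (-0.55 ± 0.08, adjusted p = 0.00492). Grhl2, which maintains epithelial junctions, was at least 1.63-fold lower. Its call was lost in limma with normexp background correction (-0.36, adjusted p 0.0532) and with dim genes kept in (-1.26, adjusted p 0.0528). The count of lower junction genes was 5, 6 and 5 without control arrays 1, 2 and 3 and 5, 4 and 4 without WT PSC medium arrays 1, 2 and 3, and that of higher ones 2, 2 and 4 without control arrays 1, 2 and 3 and 1, 3 and 1 without WT PSC medium arrays 1, 2 and 3. The lower count was also 4 with arrays scaled to their medians and 2 with dim genes kept in, and the higher 1 with dim genes kept in, 1 with the 6 arrays alone and 5 with an intensity trend and robust fitting. Cdh1 read 4.23, 4.22 and 4.29 in WT PSC medium (-0.18 ± 0.06, adjusted p = 0.145), Epcam differed by 0.21 ± 0.08 (adjusted p = 0.199), and vimentin, Vim, overlapped between the groups at 6.17, 6.24 and 6.20 and 6.12, 6.16 and 6.24 (-0.03 ± 0.06, adjusted p = 0.831).

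A few secreted matrix and contact genes that stellate cells also make were higher, while most were not called. Of 22 collagens and fibrillar matrix genes 3 were higher and 1 lower (median 0.05), the lower one being the collagen chain Col6a1 (-0.40 ± 0.08), a call lost without control array 1 or 2 or WT PSC medium array 1 or 3 (adjusted p 0.0595 to 0.0761). The higher count was 1 with dim genes kept in and 1 with the 6 arrays alone. Of 31 integrins, laminins and basement membrane genes 2 were higher and 0 lower, or 6.45% called, close to the 5.95% of all genes tested. Col8a1, a short-chain collagen, read 3.49, 3.46 and 3.16 in control medium and 4.21, 4.28 and 4.33 in WT PSC medium (0.90 ± 0.09, adjusted p = 0.00120), and Ccn1, a matricellular target of YAP, 1.92, 1.90 and 1.88 and 2.78, 2.63 and 2.94 (0.88 ± 0.09, adjusted p = 0.00126). Both are brighter in WT PSC, where Col8a1 read 6.47, 6.25 and 6.38 and Ccn1 5.48, 5.36 and 5.36. WT PSC medium array 2, where collagen chains were highest, was the middle of its group for Col8a1 and the lowest for Ccn1. Without it the differences were 0.90 ± 0.11 and 0.96 ± 0.09, and both calls held. The part of stellate cell RNA in these values was not tested on any array. Sparc, a collagen-binding glycoprotein, read 8.69, 7.90 and 8.37 in WT PSC. It read -0.39, -0.37 and -0.52 in control medium and 0.02, 0.77 and 0.35 in WT PSC medium, highest on array 2 (0.81 ± 0.18, adjusted p = 0.0372). Its difference was 0.61 ± 0.15 without array 2, and its call was lost without control array 1, 2 or 3 or WT PSC medium array 2 or 3 (adjusted p 0.0725 to 0.114) and with slide (0.0649) or the replicate number (0.0772) as a block. Thbs1, thrombospondin, rose by 0.56 ± 0.11, a call lost without control array 1 or WT PSC medium array 2 or 3 (adjusted p 0.0510 to 0.0929).

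Ankrd1, another YAP target, read 3.74, 3.77 and 3.92 in control medium and 4.66, 4.62 and 4.71 in WT PSC medium (0.85 ± 0.07, adjusted p = 0.000468), against 3.63, 3.54 and 3.56 in WT PSC. Ccn2, a close relative of Ccn1, missed the threshold at 4.83, 4.78 and 4.72 and 4.98, 5.02 and 5.17 (0.28 ± 0.07, adjusted p = 0.0572). Of 37 targets of YAP and serum response factor 5 were higher and 1 lower (median 0.19), the lower one being Foxf2 (-0.35 ± 0.06), a call lost without control array 1 or 2 or WT PSC medium array 2 or 3 (adjusted p 0.0560 to 0.0700). The count of higher ones was 4, 5 and 8 without control arrays 1, 2 and 3 and 3, 4 and 3 without WT PSC medium arrays 1, 2 and 3, and 3 with arrays scaled to their medians, 3 with dim genes kept in, 3 with the 6 arrays alone and 11 with an intensity trend and robust fitting. Targets of the TGF-beta family went both ways. Inhba, a subunit of activin, read -0.30, -0.69 and -0.38 and 0.24, 0.17 and 0.09 (0.62 ± 0.11, adjusted p = 0.0120), and Pmepa1, which dampens TGF-beta signals, 5.07, 5.16 and 4.86 and 5.50, 5.47 and 5.61 (0.50 ± 0.09, adjusted p = 0.0133, lost without WT PSC medium array 3 (adjusted p 0.0631)). The Id genes, typical targets of BMP signals that block differentiation factors, were lower: Id3 read 0.88, 0.92 and 1.03 and 0.36, 0.22 and 0.39 (-0.62 ± 0.09, adjusted p = 0.00522), and Id1 and Id2 had -0.43 ± 0.09 and -0.50 ± 0.09. The call of Id2 was lost without control array 2 or WT PSC medium array 2 (adjusted p 0.0503 to 0.0591), and that of Id1 lost without control array 2 or 3 or WT PSC medium array 1 or 2 (adjusted p 0.0633 to 0.0931) and with the replicate number (0.0546) as a block. Of 29 genes in this list 5 were higher and 3 lower. The inhibitor Smad7 did not pass (-0.14 ± 0.08, adjusted p = 0.355). The count of higher ones was 4, 4 and 3 without control arrays 1, 2 and 3 and 3, 4 and 2 without WT PSC medium arrays 1, 2 and 3, and that of lower ones 3, 1 and 2 without control arrays 1, 2 and 3 and 2, 2 and 3 without WT PSC medium arrays 1, 2 and 3. Higher ones numbered 3 with arrays scaled to their medians, 1 with dim genes kept in and 3 with the 6 arrays alone, and lower ones 0 with arrays scaled to their medians and 1 with dim genes kept in.

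Ligands and receptors of growth pathways changed one by one. Nrg1, a ligand of ERBB receptors, read 0.46, 0.40 and 0.34 in control medium and 0.94, 1.04 and 1.05 in WT PSC medium (0.61 ± 0.06, adjusted p = 0.00106). Its receptor Erbb3 was lower (-0.62 ± 0.12), a call lost without control array 1 or 2 or WT PSC medium array 2 or 3 (adjusted p 0.0597 to 0.0914). Wnt7b read 0.43, 0.29 and 0.43 and 0.91, 0.90 and 0.90 (0.52 ± 0.06, adjusted p = 0.00275), and Wnt7a rose by 0.57 ± 0.08 (adjusted p = 0.00615). Wnt9a read -3.41, -3.49 and -3.49 and -2.95, -2.85 and -2.69 (0.63 ± 0.08, adjusted p = 0.00398), while the Wnt amplifier Lgr4 fell to 66.8% (-0.58 ± 0.08, adjusted p = 0.00364). In all 4 the groups lay apart. Wnt ligands did not share one direction: of 9 tested 3 were higher and 1 lower. Their differences ran from -1.0 to 0.63, with a median of 0.06. Of 22 Wnt pathway genes 3 were higher and 3 lower, the lower count being 2, 2 and 4 without control arrays 1, 2 and 3 and 3, 1 and 1 without WT PSC medium arrays 1, 2 and 3, and 1 with dim genes kept in, 5 with slide as a block and 5 with an intensity trend and robust fitting. Fgf1, a fibroblast growth factor without a usual secretion signal, fell (-0.74 ± 0.06, adjusted p = 0.000415), while Fgfbp1, which releases such factors from matrix, rose to 167% (0.74 ± 0.10, adjusted p = 0.00455). Il34, a ligand of the macrophage receptor Csf1r, read -0.35, -0.39 and -0.50 and 0.17, 0.22 and 0.29 (0.64 ± 0.07, adjusted p = 0.00188), and the monocyte chemokine Ccl2 rose by 0.49 ± 0.09 (adjusted p = 0.0130). Of 35 chemokines and interleukins tested 3 were higher and 4 lower. The count of lower ones was 0 with arrays scaled to their medians, 1 with dim genes kept in, 2 with the mean of a gene's probes and 2 with the replicate number as a block, and that of higher ones 1 with dim genes kept in. Lower ones numbered 2, 2 and 3 without control arrays 1, 2 and 3 and 1, 1 and 1 without WT PSC medium arrays 1, 2 and 3, and Cxcl5, a neutrophil chemokine, was among the calls lost this way (-0.36 ± 0.09; lost without control array 1 or 2 or WT PSC medium array 1, 2 or 3 (adjusted p 0.121 to 0.137) and with slide (0.0694) or the replicate number (0.0997) as a block). Among acute phase and STAT3 response genes, which IL-6 type cytokines raise, 3 of 23 were higher and 2 lower, or 21.7% called (median -0.07). The higher count was 1 with dim genes kept in and 1 with the 6 arrays alone, and the lower 1 with arrays scaled to their medians, 1 with dim genes kept in, 4 with quantile scaling and 4 in the authors' deposited log2 values. Stat3 itself (-0.09 ± 0.09, adjusted p = 0.615) and its target Socs3 (-0.06 ± 0.08, adjusted p = 0.685) did not pass, and their arrays overlapped.

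Genes of prostaglandins, complement and fluid transport also changed. Slco2a1, the prostaglandin carrier, read 3.71, 3.60 and 3.64 in control medium and 2.77, 2.70 and 2.70 in WT PSC medium (-0.92 ± 0.06, adjusted p = 0.000119), while Ptgs2, the inducible cyclooxygenase, rose from -0.39, -0.51 and -0.57 to 0.05, 0.24 and 0.32 (0.70 ± 0.11, adjusted p = 0.00846). Pla2g10, a secreted phospholipase that frees the precursor, was at least 1.82-fold lower, and the receptor Ptger4 fell to 69.3% (-0.53 ± 0.07, adjusted p = 0.00460). Of 16 genes of this list 2 were higher and 4 lower. The higher count was 1 with arrays scaled to their medians, 1 with dim genes kept in and 1 with the mean of a gene's probes, and the lower 2 with arrays scaled to their medians. Complement C3 read -0.25, -0.31 and -0.57 and -1.61, -1.73 and -1.65, a fall to 41.0% (-1.28 ± 0.15, adjusted p = 0.00238), and 3.77, 3.98 and 4.0 in WT PSC. Masp1, a lectin pathway protease, rose to 154% (0.62 ± 0.08, adjusted p = 0.00340). Of 17 complement genes 1 was higher and 3 were lower. Cfi was among the latter (-0.79 ± 0.15), a call lost without control array 1 or 3 or WT PSC medium array 1, 2 or 3 (adjusted p 0.0523 to 0.0702). Among channels of ductal fluid, the water channel Aqp1 read 3.29, 3.09 and 3.16 and 2.40, 2.11 and 2.33 (-0.90 ± 0.09, adjusted p = 0.00120). The potassium channel subunit Kcne3 fell to 54.4% (-0.88 ± 0.07, adjusted p = 0.000316), Fxyd3, which tunes the sodium pump, to 51.6% (-0.95 ± 0.09, adjusted p = 0.000935) and the chloride channel Cftr to 69.6% (-0.52 ± 0.08, adjusted p = 0.00872). Of 20 genes in that list these 4 were lower and 1, Aqp5, was higher. The inducible chaperones Hspa1a and Hspa1b were the 2 of 16 heat shock genes called, with -0.54 ± 0.06 and -0.57 ± 0.08 (adjusted p = 0.00188 and 0.00441); they are near-identical copies whose probes may share signal.

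Genes of stratified epithelium, of early responses to growth factors and of the clock held a few changes each. Ivl, involucrin of the cornified envelope, read -3.24, -3.14 and -2.95 in control medium and -4.05, -4.26 and -4.19 in WT PSC medium, a fall to 48.1% (-1.06 ± 0.09, adjusted p = 0.000552). S100a7a, a secreted calcium-binding protein of inflamed skin, went up instead, from 1.07, 1.18 and 1.26 to 1.94, 1.94 and 2.02 (0.79 ± 0.08, adjusted p = 0.00119). Lamb3, a chain of the basement membrane laminin under such epithelium, rose to 146% (0.54 ± 0.08, adjusted p = 0.00786). The basal keratin Krt14 was higher (0.44 ± 0.09), a call lost without control array 1, 2 or 3 or WT PSC medium array 2 or 3 (adjusted p 0.0614 to 0.0982). Of 18 genes of stratified epithelium 4 were higher and 2 lower, the higher count being 1, 4 and 2 without control arrays 1, 2 and 3 and 2, 1 and 1 without WT PSC medium arrays 1, 2 and 3, and 1 with dim genes kept in. Of 26 immediate early genes 5 were higher and 0 lower, the higher count being 3, 4 and 5 without control arrays 1, 2 and 3 and 5, 4 and 3 without WT PSC medium arrays 1, 2 and 3, and 2 with arrays scaled to their medians, 1 with dim genes kept in and 3 with the 6 arrays alone. Fosb, a partner of Jun in AP-1, read -2.37, -2.26 and -2.25 and -1.89, -1.60 and -1.83 (0.52 ± 0.09, adjusted p = 0.0101), and Dusp5, a phosphatase that limits ERK, 2.61, 2.67 and 2.63 and 3.09, 3.09 and 3.13 (0.47 ± 0.06, adjusted p = 0.00414). For both, every WT PSC medium array lay above every control. The clock repressors Bhlhe41 and Ciart rose by 0.80 ± 0.09 and 0.52 ± 0.07 (adjusted p = 0.00218 and 0.00542), and Per2, of the core clock, was lower (-0.48 ± 0.12), a call lost without control array 1 or 2 or WT PSC medium array 1, 2 or 3 (adjusted p 0.0679 to 0.173) and with slide (0.0728) or the replicate number (0.0706) as a block. Slc16a3, which exports lactate, was higher (0.87 ± 0.16), a call lost without WT PSC medium array 2 or 3 (adjusted p 0.0524 to 0.0696). The kinase Pim3, which cytokines induce, rose (0.48 ± 0.07, adjusted p = 0.00820), and hemopexin, Hpx, an acute phase protein, fell to 58.5% (-0.77 ± 0.11, adjusted p = 0.00455).

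Growth and housekeeping genes showed few calls. Of DNA replication genes 4.44% were called and of interferon-stimulated genes 9.38%, against 5.95% of all genes tested. Of 40 mitosis genes 0 passed in limma in either direction, with a median of 0.13 against 0.03 over all genes. At an unadjusted p under 0.05 there were 8 higher and 1 lower, beside 3981 of all 19687 genes tested. A positive difference was found in 36 of the 40, but the share over all genes is not given here, so the count is no separate result. Mki67, the proliferation marker, read 4.01, 4.11 and 3.95 and 4.03, 4.14 and 4.01 (0.03 ± 0.09, adjusted p = 0.853), and Myc 3.30, 3.31 and 3.40 and 3.49, 3.38 and 3.34 (0.07 ± 0.07, adjusted p = 0.654). The groups overlapped for Mki67 and for Myc. Of 45 DNA replication genes 2 were higher and 0 lower, the higher count being 0, 0 and 2 without control arrays 1, 2 and 3 and 0, 0 and 0 without WT PSC medium arrays 1, 2 and 3, and 0 with arrays scaled to their medians, 0 with dim genes kept in, 0 with the 6 arrays alone, 1 with normexp background correction, 1 with the mean of a gene's probes, 1 in the authors' deposited log2 values, 1 with slide as a block and 0 with the replicate number as a block. Limma called 0 of 39 ribosomal protein genes (1 lower at an unadjusted p under 0.05), 0 of 26 genes of oxidative phosphorylation (4 higher), 0 of 28 lysosome and autophagy genes (2 lower) and 0 of 15 Notch pathway genes (3 higher). Of 32 interferon-stimulated genes 2 were higher and 1 lower, the higher count being 1, 0 and 0 without control arrays 1, 2 and 3 and 0, 0 and 0 without WT PSC medium arrays 1, 2 and 3, and 0 with arrays scaled to their medians, 0 with dim genes kept in, 0 with the 6 arrays alone, 1 with the mean of a gene's probes, 1 with slide as a block and 0 with the replicate number as a block. Cyclin D1, Ccnd1, which Wnt and mitogen signals raise, differed by -0.05 ± 0.07 (adjusted p = 0.736).

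The 2 slides held arrays of both groups, which allowed the difference to be taken within each. Of the 1172 genes called, 1171 had the same sign on both slides as in the fit, and the remaining one, Ugt2a3, had no value on slide 1 because its only stellate medium spot there was marked as an outlier and left out. The groups do not overlap for any called gene, which fixes that sign, so it is no separate support. Of the called genes 1024 passed with slide as a block.

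**Figure D5:**
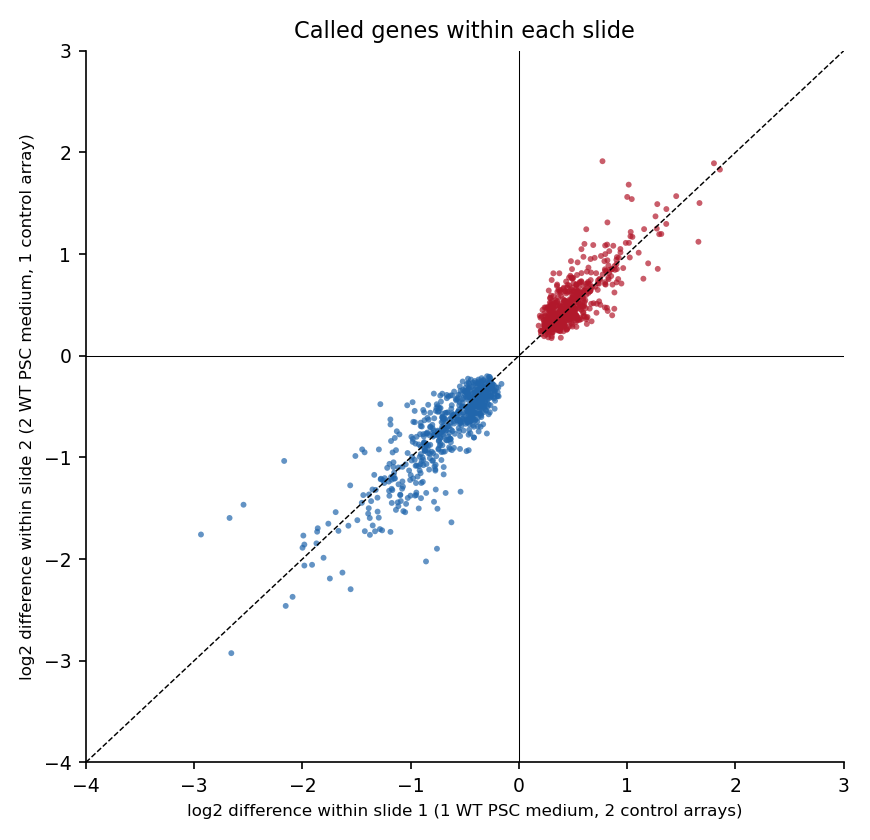
Each point is a called gene: the x axis is its log2 difference on slide 1 (1 WT PSC medium and 2 control arrays), the y axis that on slide 2 (2 and 1), and the dashed line marks equal values. Higher genes (red) are positive and lower genes (blue) negative on both slides.

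Medium from HT PSC was compared with the same control arrays, which the comparisons share. Against control, Muc5ac differed by -2.02 in HT PSC medium and -2.28 in WT PSC medium, and Tff1 by -0.94 and -1.17. Cyp2c65 had -1.61 and -1.95, Klf4 -1.26 and -1.44, and Shh -1.02 and -1.26. Among the rises, Rhox5 had 1.84 in HT PSC medium and 1.87 in WT PSC medium, and Ly6a 1.32 and 1.23. No gene passed between the media: limma called 0 of 19687, with 960 at an unadjusted p under 0.05. The direct difference, HT minus WT PSC medium, was 0.26 ± 0.15 for Muc5ac, 0.34 ± 0.08 for Cyp2c65 and -0.03 ± 0.07 for Rhox5. That no gene passed does not show that the media act alike.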

How the data were processed

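RNA of mouse pancreatic cancer cells was labelled with Cy3 and hybridised to 1-colour Agilent arrays, 1 array per sample. Per the file headers, Feature Extraction 10.7.3.1 made the deposited signal intensity of each spot, with background subtracted and spatial trends removed, and its flags for spots well above background, saturated or outlying; probes are placed on build mm9. The submitters' deposited log2 values of the same arrays, whose scaling is not stated, served as an alternative only; they correlated with the log2 mean signal of the scanner at r = 0.997 to 0.998 across probes.

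Control spots and spots marked as outliers were left out, spots of a probe were averaged, and log2 intensity minus each array's 75th percentile was taken as the level. Gene names came from RefSeq through the accession for 32994 of 56605 probes, the symbol for 10224 and a synonym for 520; 12867 kept the file's name. The probe with the highest mean over the 15 arrays stood for a gene, and the test kept genes whose probe was marked well above background on every array of 1 or more of the 3 cancer cell groups. limma 3.58.1 (lmFit and eBayes, R 4.3.3) was fitted on the 9 cancer cell arrays with the contrast WT PSC medium minus control and Benjamini-Hochberg adjustment over 19687 genes. Where a gene was well above background on no array of a group, "at least N-fold" sets the bright group's mean against, per array of the dim group, the higher of the gene's own level and the lowest level among probes well above background. The number of arrays limits the precision: in a test on simulated data with 19642 genes, this fit called 50.7%, 74.6% and 97.0% of genes changed by 0.5, 1 and 2 on the log2 scale. The simulation changed 67, 67 and 66 genes, left 19442 unchanged, and had independent noise without slide effects. In the data 1172 genes were called, so these shares are not the sensitivity of the comparison.

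The 6 arrays lay on 2 slides. Labels give replicate numbers but not what they stand for. Deviations from the group means of same-numbered arrays correlated at 0.206, 0.252 and 0.221, so the number was also tried as a block. Some pairs of unequal number correlated alike (0.210 to 0.224), and the others at -0.456 to -0.424. Members and lists were chosen with earlier results of these data known. Genes were named by rule: the 20 largest rises and falls past the threshold without overlap that carry a gene name, up to 6 called members of each list by smallest p (2 where none passed), the 10 brightest called with a change of at least 2-fold, and 30 set names; not all of these are printed, and some are not reported here. Chosen after their values were seen were Aldh1l2, Asns, Atf4, Ccn2, Cd14, Chac1, Ctse, Cyp2c67, Cyp2c68, Ddit3, Gclc, Gclm, Hmox1, Hnf4a, Id1, Itgam, Ly6e, Nqo1, Nupr1, Pdx1, Ptch1, Slc7a11, Sox9, Spdef, Srebf2, Tff3, Trib3, Txnrd1 and Ugt2a3. The HT PSC arrays were not used beyond choosing the probe of a gene. Alternatives covered background correction, scaling, filter, probes, slide, replicate number, variance model and each array left out.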

Additional observations from a re-analysis of the deposited data

How the results depend on the processing

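The count of 1172 genes past the threshold stayed within 1.5 times itself under normexp background correction, quantile scaling, a stricter filter, the mean of a gene's probes, the authors' deposited log2 values, the 6 arrays alone, slide as a block, an intensity trend with robust fitting, and with outlier spots kept. With arrays scaled to their medians it was 638 (327 higher, 311 lower), where the median of all genes moved from 0.03 to 0.08 on the log2 scale. With dim genes kept in it was 467 (175 higher, 292 lower). There more genes were tested and dim genes also entered the estimate of the spread, and the part of each was not tested. With the 6 arrays alone 316 were higher. Within slide 1 it was 18 (8 higher, 10 lower) and within slide 2 it was 0, with 3 arrays of the groups compared on each. It was 472 at an adjusted p of 0.01 and 148 at 0.05 with at least a 2-fold change. Leaving out 1 array gave 577 to 1051 genes, 219 to 468 higher and 358 to 583 lower. Of the 1656 distinct list members on the array 13.8% passed, and 7.91% with median scaling, 6.64% with dim genes kept in, 0.543% and 0% within slides 1 and 2, and 7.67% to 11.7% without 1 array.

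With the replicate number as a block 966 genes passed, 427 of them higher; beside the calls given as lost with it in the text, it changed no other call of a named gene. Of the 170 genes named, 32 were not called, 97 passed in every alternative other than the fits within a slide, and 41 passed but were lost in at least 1. Not every loss is printed beside its gene. The calls of Onecut1 and Plin2, for example, were lost with arrays scaled to their medians and with dim genes kept in. The share past the threshold, 81.2%, became 6.47% and 0% within slides 1 and 2, and 67.1% to 74.1% without 1 array. No called gene named changed sign in any alternative, while 10 of the 32 not called did. Of 1220 list medians compared, 68 moved by more than the spread. For each of these the cause was not tested.

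Genes near background had wide spreads, and 19 genes called lower were well above background on no WT PSC medium array, so that their fold is a bound. Of 585 other probes of called genes 59 had the opposite sign, 0 of them past the threshold in limma.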
